A study of Mus musculus with 39 samples.

Results

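The genes described here are 37 interferon-induced genes of the mouse, chosen by name from the 30012 rows of a table of gene counts from cultured lung fibroblasts. All 37 names were rows of the table, and 36 of them were among the 14419 genes with enough counts to be tested. The exception, Mx1, had 69 counts over 39 libraries. The cells were lineage-negative lung fibroblasts of wild-type C57BL/6 mice, left after magnetic removal of cells with CD45, CD31, EpCAM, CD146 or Ter119, cultured, passaged and starved of serum for 24 h. They then received C1q, which starts the classical pathway of complement, at 1, 10 or 100 µg/ml for 2, 24, 48 or 72 h, and 1 group was untreated at 0 h. Each of the 13 groups held 3 libraries, whose numbers only name them. Whether the libraries of a group stem from separate cultures or animals is not in the labels. The p-values therefore cover only how these libraries vary, and that variation may be technical. The only untreated group is that of 0 h, so in every comparison with untreated cells, and in those between times, C1q and time in culture cannot be told apart. The comparisons between doses at 1 time do not share this limit, but those of 100 and of 10 with 1 µg/ml share the libraries of 1 µg/ml. The column headers of 9 libraries are spelled differently from the rest, namely those of all 3 libraries of 10 and of 100 µg/ml at 24 h, 1 of 3 of 1 µg/ml at 24 h and 2 of 3 of 1 µg/ml at 48 h. What the spelling stands for is not given in the sources used here.

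Type I and type III interferons bind surface receptors that activate the kinases JAK1 and TYK2. These phosphorylate STAT proteins, and STAT2 is joined with IRF9 in the complex ISGF3. ISGF3 binds a DNA element named the interferon-stimulated response element (ISRE) in front of genes that encode sensors of foreign RNA and DNA, antiviral enzymes, GTPases and regulators of the response. Type II interferon acts through another receptor and the kinases JAK1 and JAK2, and the factors it activates bind gamma-activated sites (GAS). Many interferon-induced genes are also expressed at a low level in resting fibroblasts.

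Levels below are in CPM, a gene's counts relative to the library total after TMM scaling. Library totals ran from 1806106 to 3012518 counts, and the 37 genes held between 0.0779% and 0.396% of a library. A difference was called at an adjusted p under 0.05 in edgeR's quasi-likelihood test over all 39 libraries. In bulk samples, fewer cells of a type and less RNA per cell cannot be told apart. The 10 fibroblast markers summed to 7529 to 12130 CPM in all libraries. Some markers of the depleted cells were still counted. The 18 macrophage and myeloid markers summed to 248 to 339 CPM in the untreated and 2 h libraries and to 1048 to 1830 CPM at 72 h. The 12 epithelial markers summed to 589 to 694 CPM in untreated cells and to 96.9 to 140 CPM at 72 h. The lymphocyte and natural killer cell markers were near 0, with at most 4.17 CPM summed over the 10 genes in any library.

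At 10 µg/ml and 48 h, library 1 stood apart from its group and from all other libraries in these genes. It held the highest level of 33 of the 37 genes. Against the mean of the other 2 libraries of its group, 32 of the 36 tested genes were over 1 higher on the log2 scale, with a median of 2.08. Over all 14419 tested genes, 1.56% were that much higher and the median was 0.02. The counts of called genes are therefore given with all 39 libraries and, where they moved, again from a fit without it, an alternative added after the data were seen. Library 1 of 1 µg/ml at 24 h had 10 genes over 1 higher than its mates on the log2 scale, with a median of 0.62. Library 1 of 10 µg/ml at 24 h had 2, with a median of 0.39, and library 1 of 10 µg/ml at 72 h had 3, with a median of 0.32. In each other library, at most 1 of the 36 genes was that far above the library's mates.

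The start sites of 27 of the 37 genes were in the RefSeq promoter table used (GRCm38.p6), with 32 windows of 300 bases in all, from 250 bases before the start to 50 after it. The core of the ISRE was searched on both strands as GAAA, any 2 bases and GAAA, with overlaps allowed. It was found for 15 of the 27 genes, against 3.99% of the 27025 genes in the table and 3.44% of its 32851 windows. The core of the GAS was searched as TTCNNNGAA, which reads the same on both strands, and was found for 6 of the 27 genes, against 9.55% of all genes. A match is only a description of the letters. The following sequences are the 160 bases just before the start sites of 5 genes on which the results below turn, 5′ to 3′ on the strand of the gene, with ISRE cores in capitals. Isg15, Ifit1 and Ifit3 rose from 2 h to 24 h, while Ifit2 and Irf1 did not follow them in the library that stood apart. The Isg15 window is at chr4:156200819-156200978 on the minus strand. The windows of Ifit1 (chr19:34640729-34640888), Ifit3 (chr19:34583369-34583528), Ifit2 (chr19:34550534-34550693 and chr19:34550928-34551087) and Irf1 (chr11:53769854-53770013) are on the plus strand, and the Ifit2 windows belong to 2 start sites. Irf1 has another start site, whose window (chr11:53770313-53770472) is not printed. First and second for Ifit2 count only the start sites in the promoter table. The gene spans of Ifit2 and Ifit3 begin at chr19:34550550 and chr19:34583119, before the start sites of the printed windows. Windows at such earlier starts are not covered here.
Isg15: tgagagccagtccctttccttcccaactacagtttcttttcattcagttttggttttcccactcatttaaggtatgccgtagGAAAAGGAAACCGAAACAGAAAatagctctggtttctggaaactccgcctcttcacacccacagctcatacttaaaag
Ifit1: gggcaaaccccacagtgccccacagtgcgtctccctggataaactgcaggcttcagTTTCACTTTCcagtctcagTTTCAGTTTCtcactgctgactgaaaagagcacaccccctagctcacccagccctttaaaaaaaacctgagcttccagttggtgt
Ifit3: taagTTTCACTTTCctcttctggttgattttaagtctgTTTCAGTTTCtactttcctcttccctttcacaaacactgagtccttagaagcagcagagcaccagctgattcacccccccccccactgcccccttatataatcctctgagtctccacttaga
Ifit2, first start: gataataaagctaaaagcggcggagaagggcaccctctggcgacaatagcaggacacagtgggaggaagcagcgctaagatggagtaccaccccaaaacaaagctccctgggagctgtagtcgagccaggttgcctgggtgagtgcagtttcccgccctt
Ifit2, second start: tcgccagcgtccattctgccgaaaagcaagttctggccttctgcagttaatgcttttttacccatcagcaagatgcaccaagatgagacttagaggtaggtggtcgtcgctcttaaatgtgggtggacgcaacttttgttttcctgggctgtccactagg
Irf1: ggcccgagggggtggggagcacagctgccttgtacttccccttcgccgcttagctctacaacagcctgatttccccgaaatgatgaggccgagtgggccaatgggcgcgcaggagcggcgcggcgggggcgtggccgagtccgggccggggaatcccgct
Isg15 held 3 overlapping cores with first bases at positions -78, -72 and -66 from the start, Ifit1 had 2 at -104 and -85, and Ifit3 had 2 at -156 and -122. The printed Irf1 window held a GAS core at position -90, and Ifit2 had a GAS core at position -241, before the printed bases. Neither Ifit2 window, nor the windows of Irf1, Irf7, Irf9, Ifi44, Ifi35, Xaf1, Oasl1, Oasl2, Cmpk2, Herc6 and Trim25, held the exact core. Sensors, ISG15, OAS, GTPase and membrane protein genes were among those with a match, namely Ifih1, Ddx58, Isg15, Oas1a, Gbp2, Gbp3, Igtp, Rsad2, Bst2, Trim30a, Stat2, Cxcl10, Ifit1, Ifit3 and Ifit3b. In the library that stood apart, genes with a match exceeded its mates by 1.42 (Ifih1) to 3.37 (Isg15) on the log2 scale. Genes without a match exceeded them by 0.17 (Irf1) to 3.99 (Ifi44), with 3.16 for Cmpk2 and 2.84 for Irf7. Among the 5 genes printed, those with a core were also those that exceeded the mates by more. The genes not printed do not divide so, with Ifi44, Cmpk2 and Irf7 as examples. Whether the core goes with the level was not tested.

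The mean level of the 36 tested genes per library, as log2 CPM minus each gene's mean over the 39 libraries, had its lowest group means at 2 h and its highest at 100 µg/ml at 24 h. It was -0.26 to -0.17 in the untreated libraries and -0.57 to -0.34 in the 9 libraries of 2 h, and the ranges did not overlap. The 24 h libraries had 0.03, 0.05 and 0.66 for 1 µg/ml, 0.13, 0.19 and 0.60 for 10 µg/ml, and 0.64, 0.64 and 0.68 for 100 µg/ml. So the 3 libraries of 100 µg/ml lay close together, and the first library of each lower dose lay near them. At 48 h it was -0.41 to -0.21 at 1 µg/ml and 0.22 to 0.39 at 100 µg/ml, with 1.99, -0.31 and 0.01 in the 3 libraries of 10 µg/ml. At 72 h it was -0.37 to -0.10 at 1 µg/ml, -0.30 to 0.13 at 10 µg/ml and 0.08 to 0.28 at 100 µg/ml. At 48 h and 72 h the libraries of 100 µg/ml were above all those of 1 µg/ml.

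**Figure D1:**
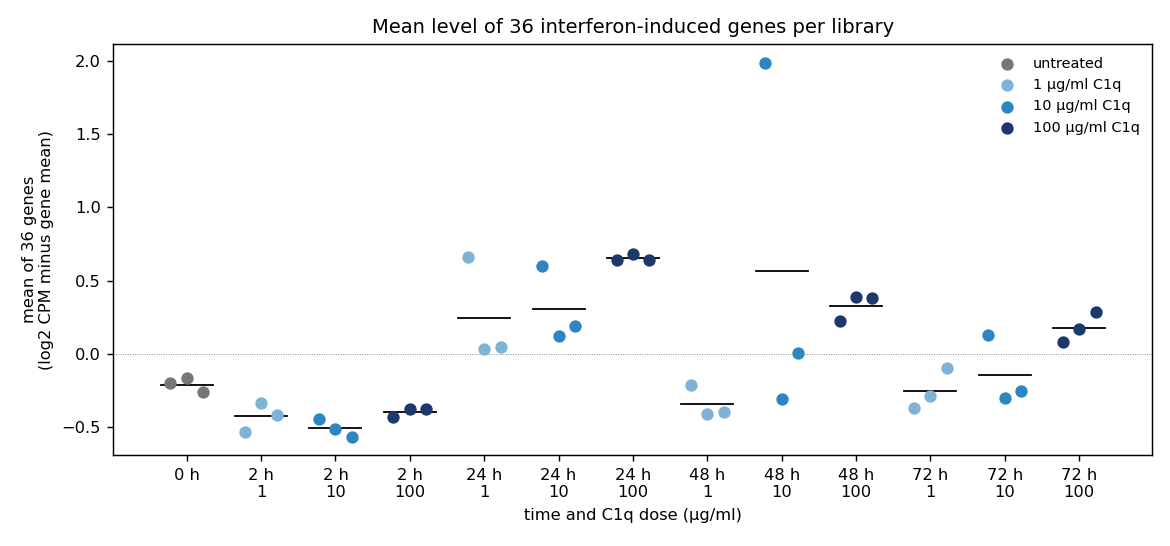
Mean over the 36 tested interferon-induced genes of log2 CPM minus the gene's mean over all libraries (vertical axis), for each of the 39 libraries by time and C1q dose (horizontal axis); points are libraries and black lines are group means. The libraries of 100 µg/ml lie between 0.64 and 0.68 at 24 h, and library 1 of 10 µg/ml at 48 h lies at 1.99, above all others.

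**Figure D2:**
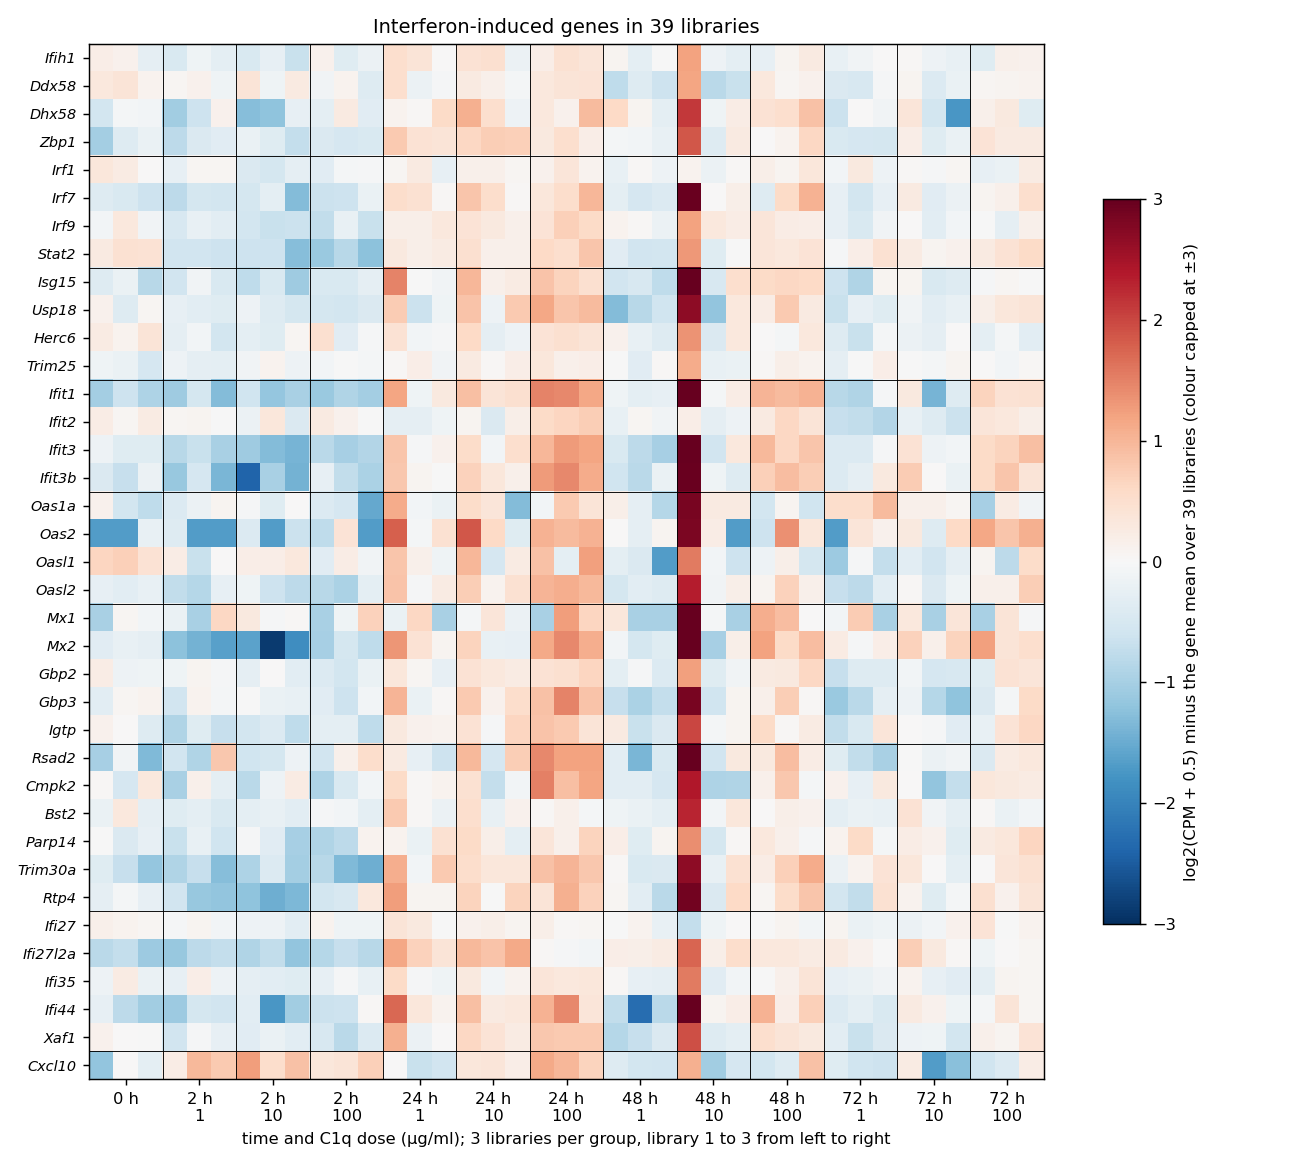
Level of each of the 37 genes (rows, grouped by role) in each of the 39 libraries (columns, 3 per group by time and dose), as log2(CPM + 0.5) minus the gene's mean, with red above and blue below the mean and the colour capped at 3. The column of library 1 of 10 µg/ml at 48 h is red for nearly all genes, pale for Irf1 and Ifit2 and blue for Ifi27, and the 9 columns of 2 h are mostly blue except for Cxcl10.

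At 2 h, few of the 36 genes changed. Stat2 fell at all 3 doses, Irf1 and Irf9 fell and Cxcl10 rose at 10 µg/ml. At 1 µg/ml 0 of the 36 were called higher and 1 lower against untreated cells, where 4.28% of all tested genes were called higher and 1.87% lower. At 10 µg/ml the counts were 1 and 3, against 7.64% and 5.1% of all genes. At 100 µg/ml they were 0 and 1, against 3.14% and 2.02%. The medians of the 36 log2 differences were -0.25, -0.26 and -0.20 at 1, 10 and 100 µg/ml, beside -0.02, -0.03 and -0.03 over all tested genes. Without the library that stood apart, the numbers called were 2, 9 and 2, beside 6.28%, 13% and 5.23% of all genes in that fit. The 9 at 10 µg/ml were Cxcl10, which was higher, and Stat2, Irf9, Irf1, Ifit3, Ifit3b, Mx2, Rtp4 and Ifi27, which were lower.

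At 24 h, genes of several roles were called higher than in untreated cells, most often at 100 µg/ml, and most of the calls at that dose were lost in a fit with header spelling as a term. Without that term, 17 of the 36 were called higher and 0 lower at 100 µg/ml, against 16.8% and 19.9% of all tested genes. At 1 µg/ml 4 were called higher and 0 lower, against 10.9% and 14.3% of all genes. At 10 µg/ml 3 were higher and 0 lower, against 12.5% and 15.3%. The shares called higher at the 2 lower doses were thus near those of all genes, while 0 were lower. The medians of the 36 were 0.36, 0.46 and 0.86 at 1, 10 and 100 µg/ml, beside 0.01, 0.02 and 0.05 over all genes. In the fit without library 1 of 10 µg/ml at 48 h, which is in none of these groups but enters the shared estimate of the spread, 13, 13 and 26 were higher and 1, 0 and 0 lower. In that fit 11.1%, 12.7% and 17.1% of all genes were higher and 14.5%, 15.4% and 20% lower. Leaving out 1 library of the 100 µg/ml or the untreated group at a time gave 10 to 14 called genes, and the shares of all genes in those fits are not given here.

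The libraries of 10 and 100 µg/ml at 24 h carry only the other header spelling and the untreated ones only the usual one, so no value within 1 spelling could be had for these comparisons. A fit with the spelling as a term, an alternative added after the data were seen, rests on the 2 groups of 1 µg/ml that hold both spellings. At 24 h the other spelling in that group is library 3 alone. It had 2.84% of all tested genes over 1 higher on the log2 scale than its mates, the largest share of the 39 libraries. Its mates include library 1, in which 10 of the 36 genes were that far above the other libraries of the group. These limits bear on all values of the fit with this term. The fit with the spelling term called 4, 2 and 3 genes higher at 1, 10 and 100 µg/ml at 24 h and 0 lower, against 8.72%, 4.94% and 5.93% of all genes higher. The 3 at 100 µg/ml were Ifit1 (log2 difference 2.48, adjusted p = 0.0152), Ifit3b (2.24, adjusted p = 0.0304) and Ifi27l2a (1.17, adjusted p = 0.00442), and 17 had an unadjusted p under 0.05. For counts at an unadjusted p, here and below, the share of all genes was not counted. They do not show whether the 36 differ from all genes. The medians of the 36 in this fit were 0.40, 0.68 and 1.07. The other calls at 100 µg/ml at 24 h against untreated cells, named gene by gene below, come from the fit without this term and were not called with it. Marker levels differed in the same comparison. At 100 µg/ml at 24 h, 8 of the 18 macrophage and myeloid markers were called higher and 0 lower, with sums of 456 to 475 CPM beside 305 to 339 CPM in untreated cells, and 9 of 11 tested epithelial markers were lower. These calls come from the fit without the spelling term, where 16.8% of all genes were higher and 19.9% lower. The part of the markers in the differences of the 36 genes was not tested.

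Averaged over doses, 24 h exceeded 2 h for 30 of the 36 genes, against 29.3% of all tested genes. None of the 36 were called lower, against 28.6% of all genes. The median of the 36 was 0.92, beside 0.05 over all genes. The 6 genes not called higher were Cxcl10, Ifit2, Ddx58, Oas1a, Oasl1 and Rsad2. Without the library that stood apart the counts were 32 higher and 1, Cxcl10, lower, beside 29.4% and 28.7% of all genes. With header spelling as a term they were 19 higher and 0 lower, beside 15% and 17.7%.

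At 48 h, the count for 10 µg/ml rested on 1 library. Against untreated cells, 25 of the 36 genes were called higher and 1, Ifi27, lower at 10 µg/ml, where 17% of all genes were called higher and 17.5% lower. Without library 1 of this group, 3 were higher (Ifi27l2a, Trim30a and Ifit1) and 2 lower (Ddx58 and Stat2), beside 14.8% and 15.8% of all genes. At 1 µg/ml 1 gene, Ifi27l2a, was called higher and 3, Oasl1, Stat2 and Ddx58, were lower, against 16% and 17.1% of all genes. At 100 µg/ml 5 were higher, Ifit1, Trim30a, Ifi27l2a, Ifit3 and Zbp1, and 0 lower, against 19.1% and 20.9%. In the fit without library 1 of 10 µg/ml, the 100 µg/ml count was 14 higher and 0 lower, while that of 1 µg/ml was 1 higher and 5 lower, beside 19.3% and 21.1%, and 16.2% and 17.2%, of all genes. Against 24 h, averaged over doses, the fit of all libraries called 0 genes higher and 1, Ifi27, lower at 48 h, against 12.8% and 12.1% of all genes. Without the library that stood apart, 26 of the 36 were called lower at 48 h than at 24 h, with a median of -0.49, beside 11.8% of all genes. With header spelling as a term 0 were called, with 2 at an unadjusted p under 0.05, beside 16.2% of all genes called.

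At 72 h against untreated cells, 4 genes were called higher at 100 µg/ml, namely Ifit1, Ifi27l2a, Zbp1 and Oas2, and 0 lower, against 22.5% and 23.3% of all genes. At 1 µg/ml and at 10 µg/ml Ifi27l2a was higher and Ifit2 lower. The background at 1 µg/ml was 18.1% higher and 20.1% lower, and at 10 µg/ml it was 19.3% and 20.6%. The fit without the library that stood apart gave 11 higher at 100 µg/ml, 3 higher and 5 lower at 1 µg/ml, and 3 higher and 2 lower at 10 µg/ml. The shares of all genes in that fit were 22.7% and 23.4%, 18.2% and 20.3%, and 19.5% and 20.8%. From 48 h to 72 h, 0 were called higher and 9 lower in the fit of all libraries, against 8.38% and 8.27% of all genes, and 1 higher and 2 lower without that library, beside 6.93% and 7.13%. The 12 comparisons with untreated cells share those 3 libraries, so their values are not independent of each other.

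Between doses at 1 time, the 100 µg/ml cells exceeded the 1 µg/ml cells in a few genes with all libraries and in many more without the library that stood apart. With all libraries the counts were small, and at 24 h and 72 h they were near the share of all genes called higher. At 2 h, 0 of the 36 were called in either direction, with 0 at an unadjusted p under 0.05, where 1.28% of all genes were called higher and 1.94% lower. At 24 h Ifit2 and Cxcl10 were higher and Ifi27l2a lower, against 3.77% and 7.21% of all genes. At 48 h Ifit3, Stat2 and Ifit2 were higher and 0 lower, against 3.82% and 6.44%. At 72 h Ifit2 was higher and 0 lower, against 4.99% and 6.51%. The medians of the 36 were 0.31, 0.73 and 0.48 at 24, 48 and 72 h, beside 0.03, -0.01 and 0.00 over all genes. In the fit without library 1 of 10 µg/ml at 48 h, a library in none of these groups, 12 were higher and 1 lower at 24 h, 16 higher and 0 lower at 48 h, and 8 higher and 0 lower at 72 h. In that fit 4.01%, 4.11% and 5.18% of all genes were higher at these times. With header spelling as a term, 1 gene was called at each of the 3 times, namely Ifit2 at 24 h and 72 h and Stat2 at 48 h. The other calls of the 36 between these doses, given gene by gene below, come from fits without this term. They were not called with it. In the fit with that term 3.38%, 7.8% and 11.6% of all genes were called at 24, 48 and 72 h. Markers moved between these doses too. Of the 10 fibroblast markers, 6 were called lower at 100 µg/ml at 24 h and 5 at 48 h, while at 72 h 2 were higher and 1 lower. Of 9 tested endothelial markers 2, 4 and 3 were lower at 24, 48 and 72 h, and of 6 mesothelial markers 0, 3 and 4. Of the 18 macrophage and myeloid markers, 1, 4 and 8 were called lower at 24, 48 and 72 h and 0 higher, and they summed to 1048 to 1281 CPM at 100 µg/ml and 1424 to 1526 CPM at 1 µg/ml at 72 h. Their part in the differences of the 36 genes was not tested.

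The difference between 10 and 1 µg/ml at 48 h rested on the library that stood apart. At 48 h, 16 of the 36 were called higher, and only 30 of all tested genes were, or 0.208%, with 0% lower. With header spelling as a term 0 of the 36 and 0% of all tested genes were called. In that fit 28 of the 36 had an unadjusted p under 0.05, with no share of all genes at that threshold. Without that library 0 of the 36 were called, and 1 of all tested genes was. At 2 h, 24 h and 72 h edgeR called 0 of the 36 in this comparison, with 1, 0 and 1 at an unadjusted p under 0.05. The shares of all genes called higher and lower were 0.804% and 0.0347% at 2 h, 0.0416% and 0.00694% at 24 h, and 0% and 0% at 72 h. A test of whether the slope over dose differed between the 4 times called Ifit2 alone among the 36, against 6.78% of all genes. Without the library that stood apart, it called 7, Ifit2, Stat2, Ifi27l2a, Ifit3, Gbp2, Zbp1 and Xaf1, and 7.09% of all genes.

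**Figure D3:**
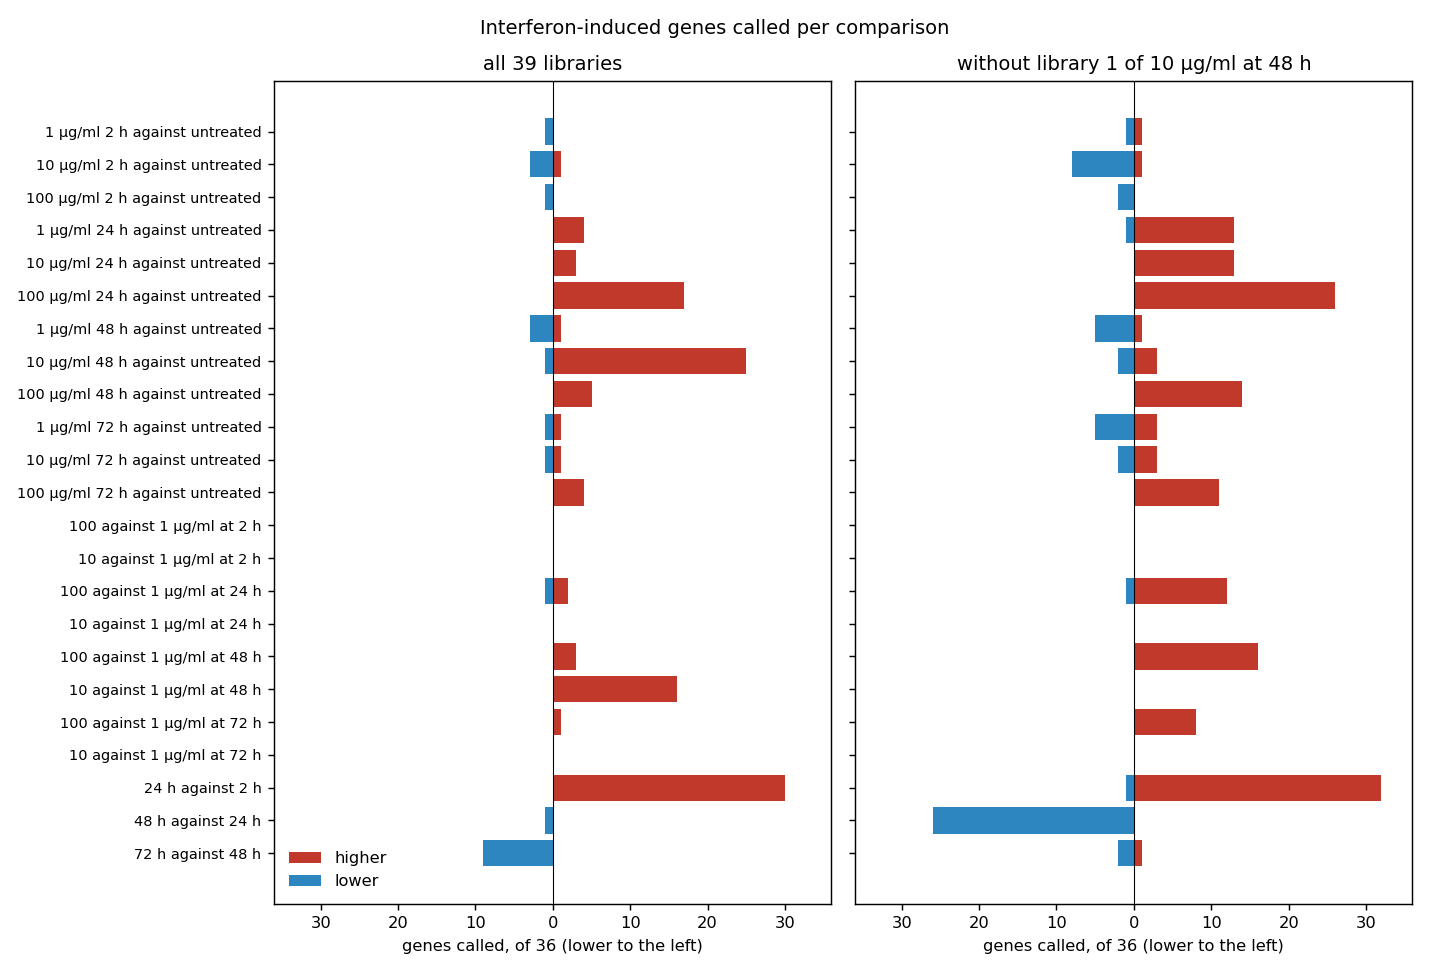
Number of the 36 tested genes called higher (red, to the right) or lower (blue, to the left) in each comparison at an adjusted p under 0.05, with all 39 libraries (left) and without library 1 of 10 µg/ml at 48 h (right). Leaving it out takes the calls of 10 against 1 µg/ml at 48 h from 16 to 0 and those of 100 against 1 µg/ml at 48 h from 3 to 16.

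Among the transcription factors of the pathway, Stat2 and Irf9 encode subunits of ISGF3, Irf7 encodes a factor that amplifies interferon production, and Irf1 a factor also induced through GAS elements. Stat2 stood at 44.5, 51.0 and 50.2 CPM in the untreated libraries. It was at 23.8 to 24.7 CPM in the 2 h libraries of 1 µg/ml, at 14.8 to 23.8 at 10 µg/ml and at 15.3 to 20.6 at 100 µg/ml. All 9 libraries of 2 h were thus below the untreated ones, and Stat2 fell by 0.99 ± 0.23 (log2, SE; adjusted p = 0.00238), 1.20 ± 0.24 (adjusted p = 0.000244) and 1.44 ± 0.25 (adjusted p = 6.27e-05) at the 3 doses in edgeR's test.

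At 24 h Stat2 was back at 41.1 to 65.5 CPM, and the rise over 2 h was 1.21 ± 0.14 on the log2 scale (adjusted p = 1.28e-10). At 48 h it was at 24.6 to 29.1 CPM at 1 µg/ml and at 45.8 to 49.3 CPM at 100 µg/ml, with 91.6, 28.5 and 36.7 CPM in the libraries of 10 µg/ml. The libraries of 1 and 100 µg/ml did not overlap, and the difference of 0.85 ± 0.23 was called (adjusted p = 0.0093). By 72 h Stat2 stood at 36.2 to 55.0 CPM over all 3 doses.

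Irf9 went from 37.5 to 50 CPM in untreated cells to 23.8 to 34.4 CPM at 2 h and 44.8 to 66.2 CPM at 24 h, with no overlap between 2 h and either of the others. The fall at 10 µg/ml at 2 h was 0.66 ± 0.19 (log2, SE; adjusted p = 0.0137), and the rise at 100 µg/ml at 24 h was 0.54 ± 0.17 (adjusted p = 0.00897). Irf7 was at 8.52 to 10.0 CPM in untreated cells and at 17, 19.4 and 27.2 CPM at 100 µg/ml at 24 h, a rise of 1.19 ± 0.50 (adjusted p = 0.0473). In the library that stood apart it was at 106 CPM, beside 13.4 and 15.0 CPM in its mates. Irf1 did not follow, with 33 CPM in that library and 27.2 and 31.7 CPM in its mates. It lay between 21.3 and 39.5 CPM over all 39 libraries and fell only at 10 µg/ml at 2 h among the 12 comparisons with untreated cells, by 0.61 ± 0.16 (adjusted p = 0.00519).

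Isg15 encodes a ubiquitin-like protein that is joined to other proteins, Herc6 a ligase that joins it in the mouse, Usp18 the protease that removes it and restrains the interferon receptor, and Trim25 a ubiquitin ligase that acts on the RNA sensor RIG-I. Isg15 (chr4:156199424-156200818) was at 26.5, 30.5 and 19.6 CPM in untreated cells. At 24 h it was at 99.6, 34.6 and 32.6 CPM at 1 µg/ml, at 69.8, 39 and 41.8 at 10 µg/ml and at 63.7, 56.3 and 49.1 at 100 µg/ml. All 9 libraries were above the untreated ones, and the 3 doses overlapped. The difference of 100 µg/ml from untreated cells was 1.15 ± 0.53 (log2, SE; adjusted p = 0.0751) with all libraries and 1.15 ± 0.28 (adjusted p = 0.000824) without the library that stood apart.

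At 48 h Isg15 was at 20.5 to 25.0 CPM at 1 µg/ml, at 371, 24.9 and 49.4 CPM at 10 µg/ml and at 52.0, 54.0 and 52.8 CPM at 100 µg/ml. The 100 µg/ml libraries were all above those of 1 µg/ml, by 1.21 ± 0.54 (adjusted p = 0.148) in the fit of all libraries and by 1.21 ± 0.29 (adjusted p = 0.00304) without the library that stood apart. The difference of 10 from 1 µg/ml, 2.72 ± 0.50 (adjusted p = 0.00306), became 0.70 ± 0.33 (adjusted p = 1) without it.

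Usp18 was at 7.37 to 10.8 CPM in untreated cells and at 22.6, 17.9 and 19.5 CPM at 100 µg/ml at 24 h, without overlap, with a difference of 1.05 ± 0.46 (adjusted p = 0.0601). That call was reached without the library that stood apart (adjusted p = 0.00129). Usp18 was at 65.7, 4.01 and 12.2 CPM in the 3 libraries of 10 µg/ml at 48 h. Trim25 rose at 100 µg/ml at 24 h by 0.51 ± 0.20 (adjusted p = 0.0445), from 23 ± 3.02 to 32.8 ± 2.18 CPM (SD, n = 3). Herc6 was called only for 24 h over 2 h, by 0.37 ± 0.16 (adjusted p = 0.0432).

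The IFIT genes encode RNA-binding proteins that bind foreign RNA ends, and the mouse genes lie side by side on chromosome 19. Reads of Ifit3 and Ifit3b cannot be told apart with certainty, since 51.2% of the 50-base windows of the Ifit3 transcripts also occur in those of Ifit3b. Such shares, here and below, cover whole transcripts, while the libraries are from 5′-end sequencing. The share among 5′-end reads was not counted. Ifit1 was at 10.4, 13.7 and 11.1 CPM in untreated cells and between 8.49 and 14.7 CPM in all 9 libraries of 2 h. The libraries of 24 h had 49.4, 19.7 and 26.3 CPM for 1 µg/ml, 40.8, 28 and 30.1 CPM for 10 µg/ml, and 61.4, 59.6 and 48.4 CPM for 100 µg/ml. No library of 24 h reached down to the untreated range, and library 1 of 1 µg/ml overlapped those of 100 µg/ml.

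Ifit1 was called higher than in untreated cells at 24 h at all 3 doses, by 1.45 ± 0.57 (adjusted p = 0.0424), 1.49 ± 0.57 (adjusted p = 0.0344) and 2.28 ± 0.54 (adjusted p = 0.000313). It stayed called at 100 µg/ml at 48 h, by 1.90 ± 0.57 (adjusted p = 0.00369), and at 72 h, by 1.42 ± 0.58 (adjusted p = 0.0346). Its 48 h levels were 19.5, 17.4 and 18.1 CPM for 1 µg/ml, 202, 20.5 and 24.9 CPM for 10 µg/ml, and 44.1, 41.7 and 44.8 CPM for 100 µg/ml. The 100 µg/ml libraries were all above those of 1 µg/ml, by 1.24 ± 0.49 (adjusted p = 0.0883) with all libraries and 1.24 ± 0.25 (adjusted p = 0.000449) without the library that stood apart.

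Ifit3 was at 32.5, 27.9 and 27.7 CPM in untreated cells and at 13.3 to 22.5 CPM in the libraries of 2 h, which lay below them. It was at 71.7, 87.4 and 82.6 CPM at 100 µg/ml at 24 h, a rise of 1.45 ± 0.42 over untreated cells (adjusted p = 0.00469). At 48 h it was at 26.1, 20.6 and 17.7 CPM at 1 µg/ml and at 70.9, 55.8 and 64.3 CPM at 100 µg/ml, a difference of 1.56 ± 0.46 (adjusted p = 0.0181). At 10 µg/ml it was at 288, 24.1 and 44.4 CPM. Ifit3b was at 9.67 ± 1.8 CPM (SD, n = 3) in untreated cells and 32.6 ± 3.82 CPM at 100 µg/ml at 24 h (log2 difference 1.73 ± 0.51, adjusted p = 0.00346).

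Ifit2 differed between 100 and 1 µg/ml at 24, 48 and 72 h, though with header spelling as a term it was not called at 48 h. It was at 33.3, 30.0 and 34.1 CPM in untreated cells. In the 24 h libraries its levels were 23.6, 23.8 and 26.3 CPM for 1 µg/ml, 30.3, 21.2 and 32.3 CPM for 10 µg/ml, and 43.2, 45 and 48.4 CPM for 100 µg/ml. The 100 µg/ml libraries were above all others of that time, by 0.89 ± 0.15 over 1 µg/ml (adjusted p = 2.89e-05). The same difference was 0.53 ± 0.16 at 48 h (adjusted p = 0.0204) and 1.07 ± 0.18 at 72 h (adjusted p = 1.2e-05), when Ifit2 was at 17.5, 17 and 15.3 CPM at 1 µg/ml and 37.0, 35.8 and 32.2 CPM at 100 µg/ml.

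Against untreated cells Ifit2 rose at 100 µg/ml at 24 h by 0.48 ± 0.15 (adjusted p = 0.0077) and fell by 0.97 ± 0.18 (adjusted p = 1.38e-05) at 1 µg/ml at 72 h. Its slope over dose differed between times (adjusted p = 0.0139 in the interaction test of edgeR), and at 2 h its libraries ran from 21 to 36.6 CPM without a call between doses. In the library that stood apart Ifit2 was at 33 CPM, beside 23.6 and 25.8 CPM in its mates. Its excess over the mates in that library was 0.41 on the log2 scale, where Ifit1, Ifit3 and Ifit3b had 3.12, 3.11 and 3.19.

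**Figure D4:**
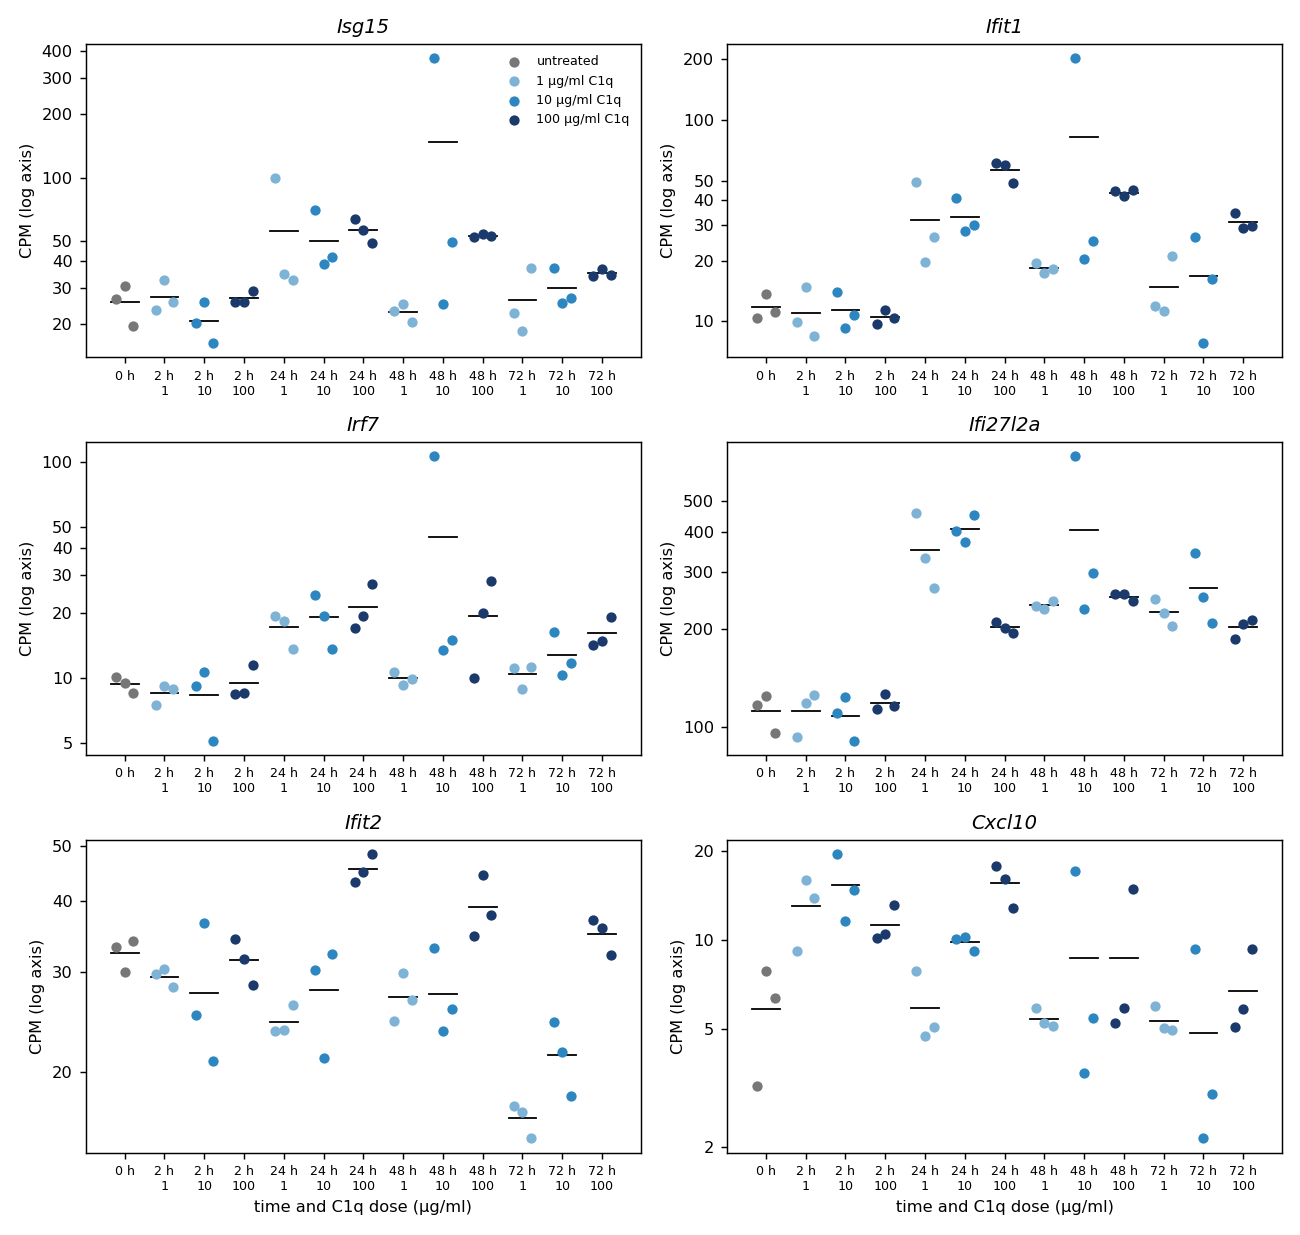
CPM on a log axis of Isg15, Ifit1, Irf7, Ifi27l2a, Ifit2 and Cxcl10 in each library by time and C1q dose; points are libraries and black lines are group means. Isg15, Ifit1 and Irf7 peak in library 1 of 10 µg/ml at 48 h (371, 202 and 106 CPM), Ifit2 is highest at 100 µg/ml from 24 h on, Ifi27l2a is lower at 100 than at 1 and 10 µg/ml at 24 h, and Cxcl10 is high at 2 h.

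The OAS genes encode enzymes that sense double-stranded RNA and activate RNase L, and OASL proteins are relatives of them. Oasl2 was at 17.9 to 19.2 CPM in untreated cells and at 45.5, 48.3 and 44.6 CPM at 100 µg/ml at 24 h, where it rose by 1.30 ± 0.36 (adjusted p = 0.00251). In the library that stood apart it was at 117 CPM, beside 20.9 and 25.4 CPM. The other 3 OAS genes were low, with 160 to 299 counts over all libraries. Of these, Oas2 was called higher at 100 µg/ml at 24 h and 72 h, with 2.56 to 2.79 CPM and 2.34 to 3.04 CPM beside 0, 0 and 0.852 CPM in untreated cells, Oasl1 was called lower at 1 µg/ml at 48 h, and Oas1a was called only for 10 µg/ml at 48 h. Of the 50-base windows of the Oas1a transcripts, 57.6% also occur in those of Oas1g, so its counts are uncertain.

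The MX proteins and the guanylate-binding proteins are GTPases that act on viruses and on vacuoles of pathogens. Mx2 was at 2.4 to 2.63 CPM in untreated cells, at 0 to 2.02 CPM in the libraries of 2 h and at 7.52, 9.5 and 7.32 CPM at 100 µg/ml at 24 h, a rise of 1.67 ± 0.65 over untreated cells (adjusted p = 0.0249). Gbp3 was at 11.6 to 15.8 CPM in untreated cells and at 27.3, 41.3 and 26.5 CPM at 100 µg/ml at 24 h, a rise of 1.17 ± 0.47 (adjusted p = 0.0395). It was at 108, 9.36 and 15.4 CPM at 10 µg/ml at 48 h. Gbp2 was at 54.2 to 62.7 CPM at 100 µg/ml at 24 h and at 36.3 to 47.3 CPM in untreated cells, without overlap, but the difference of 0.52 ± 0.22 was not called (adjusted p = 0.0583). Igtp likewise had a difference of 0.78 ± 0.34 (adjusted p = 0.067), and both were called in the fit without the library that stood apart. Of the 69 counts of Mx1, 19 were in the library that stood apart.

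Among the sensors, Zbp1 encodes a receptor of left-handed nucleic acids, Ddx58 and Ifih1 the RNA sensors RIG-I and MDA5, and Dhx58 their regulator LGP2. Zbp1 rose at every dose at 24 h, from 13.2, 20.5 and 23.4 CPM in untreated cells to 35.6 to 47.3 CPM at 1 µg/ml (1.08 ± 0.30, adjusted p = 0.00476), 42.2 to 45.8 at 10 µg/ml (1.23 ± 0.30, adjusted p = 0.00105) and 31.4 to 38.7 at 100 µg/ml (0.86 ± 0.30, adjusted p = 0.0204). No library of 24 h overlapped with untreated ones. It stayed higher at 100 µg/ml at 72 h, with 32.6 to 36 CPM (0.83 ± 0.31, adjusted p = 0.0247).

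Ddx58 fell at 1 µg/ml at 48 h, from 34.9 to 42.1 CPM in untreated cells to 18.8, 24.6 and 20.9 CPM, by 0.86 ± 0.28 (adjusted p = 0.0118). At 10 µg/ml it was at 74.1, 18.3 and 20.0 CPM, so that library 1 alone was above the untreated range. At 100 µg/ml it was at 33.6 to 39.9 CPM, above all libraries of 1 µg/ml, with a difference of 0.76 ± 0.28 (adjusted p = 0.0747, and 0.00228 without the library that stood apart). Ifih1 was called once, for 24 h over 2 h, by 0.62 ± 0.14 (adjusted p = 0.00024), and its libraries ran from 12.8 to 29.4 CPM apart from 48.2 CPM in the library that stood apart. Dhx58 rose from 2 h to 24 h by 0.98 ± 0.30 (adjusted p = 0.00361) at levels of 1.13 to 11 CPM outside that library, where it was at 23.1 CPM.

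Among antiviral enzymes and membrane proteins, Rsad2 encodes viperin, Cmpk2 a nucleotide kinase, Bst2 tetherin, Parp14 an ADP-ribosyltransferase, Trim30a a TRIM protein and Rtp4 a receptor transporter protein. Rsad2 rose at 100 µg/ml at 24 h from 0.852 to 2.63 CPM to 7.31 to 8.71 CPM, by 2.34 ± 0.77 (adjusted p = 0.00453). Cmpk2, next to Rsad2 on chromosome 12, rose there from 3.16 to 5.96 CPM to 9.14 to 14.3 CPM, by 1.27 ± 0.50 (adjusted p = 0.0334). In both genes the 100 µg/ml libraries were above all those of the lower doses at 24 h. Trim30a rose at 24 h at 1 µg/ml by 1.41 ± 0.48 (adjusted p = 0.0176) and at 100 µg/ml by 1.64 ± 0.47 (adjusted p = 0.00283), from 7.82 ± 2.24 to 21.1 ± 8.18 and 24.6 ± 1.89 CPM (SD, n = 3).

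Bst2, at 101 to 239 CPM outside the library that stood apart, was at 680 CPM in it and at 131 and 175 CPM in its mates. At 24 h the levels were 239, 142 and 123 CPM for 1 µg/ml, 195, 118 and 152 CPM for 10 µg/ml, and 141, 155 and 133 CPM for 100 µg/ml, so its doses overlapped and it was not called against untreated cells at any dose of that time. Rtp4 was at 6.02 to 7.35 CPM at 10 µg/ml at 2 h, below 14.4 to 16.8 CPM in untreated cells, and was called there only without the library that stood apart. It rose from 2 h to 24 h by 1.47 ± 0.31 (adjusted p = 3.73e-05), and Parp14 by 0.72 ± 0.19 (adjusted p = 0.00114).

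Ifi27 and Ifi27l2a encode small hydrophobic membrane proteins, Ifi35 and Ifi44 proteins of less settled function, and Xaf1 a factor that promotes apoptosis. The span of Ifi27 (chr12:103434189-103440245) lies inside that of Ifi27l2a (chr12:103433873-103443680), so how reads were assigned between them is uncertain. Of the 50-base windows of the Ifi27 transcripts, 0% occur in those of other genes. Ifi27l2a had the smallest adjusted p of the 36 genes against untreated cells. It was at 116, 124 and 95.8 CPM in untreated cells and at 90.5 to 126 CPM in the 9 libraries of 2 h. Its 24 h levels were 457, 332 and 268 CPM for 1 µg/ml, 402, 373 and 453 CPM for 10 µg/ml, and 211, 202 and 195 CPM for 100 µg/ml. The 100 µg/ml libraries were above the untreated ones and below all those of the lower doses.

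The rise of Ifi27l2a over untreated cells at 24 h was 1.66 ± 0.21 (adjusted p = 3.11e-08), 1.87 ± 0.21 (adjusted p = 1.59e-09) and 0.86 ± 0.21 (adjusted p = 0.00141) at 1, 10 and 100 µg/ml. The difference of 100 from 1 µg/ml was -0.80 ± 0.20 (adjusted p = 0.00514), against the direction of Ifit2 and Cxcl10, the other genes called there. At 48 h and 72 h the difference between these doses was 0.09 ± 0.20 (adjusted p = 0.838) and -0.15 ± 0.21 (adjusted p = 0.725). Ifi27l2a was called higher than in untreated cells at every dose of 24, 48 and 72 h.

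Ifi27, at 127 to 279 CPM, was the only one of the 36 genes lower in the library that stood apart than the mean of its mates, at 127 CPM beside 194 and 212 CPM. Its fall at 10 µg/ml at 48 h, by 0.36 ± 0.12 (adjusted p = 0.0219), was not called without that library (adjusted p = 0.328). Ifi44 was at 2.55 to 4.81 CPM in untreated cells and at 115 CPM in that library, beside 6.24 and 6.80 CPM. At 24 h it was at 20.4, 7.47 and 6.35 CPM at 1 µg/ml and 12.7, 16.8 and 7.66 CPM at 100 µg/ml, where its difference from untreated cells was 1.78 ± 0.85 (adjusted p = 0.0692, and 0.000295 without that library). Xaf1 at 100 µg/ml was at 40.8 to 41.6 CPM at 24 h and 28.9 to 33.6 CPM at 48 h, above 23.4 to 26.1 CPM in untreated cells, and Ifi35 was at 52.6 to 53.8 CPM at 24 h beside 36.6 to 50 CPM. Neither was called with all libraries, and both were at 24 h without the library that stood apart (adjusted p = 0.00137 for Xaf1 and 0.0487 for Ifi35).

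Cxcl10, which encodes a chemokine for T cells and is also a target of NF-κB, was high at 2 h and again at 100 µg/ml at 24 h. It was at 3.21, 7.89 and 6.39 CPM in untreated cells and at 9.22 to 19.6 CPM in the 9 libraries of 2 h, all above the untreated ones. The rise was called at 10 µg/ml, by 1.46 ± 0.41 (adjusted p = 0.00822), but not at 1 µg/ml (1.19 ± 0.41, adjusted p = 0.0653) or at 100 µg/ml (0.97 ± 0.43, adjusted p = 0.204). Without the library that stood apart it was called at 1 µg/ml too (1.19 ± 0.36, adjusted p = 0.0263). After 24 h its levels were 7.88, 4.75 and 5.08 CPM for 1 µg/ml, 10.1, 10.2 and 9.18 CPM for 10 µg/ml, and 17.8, 16.1 and 12.9 CPM for 100 µg/ml. The 3 doses did not overlap, and 100 exceeded 1 µg/ml by 1.38 ± 0.38 (adjusted p = 0.00796). In the library that stood apart it was at 17.1 CPM, beside 3.56 and 5.44 CPM.

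**Figure D5:**
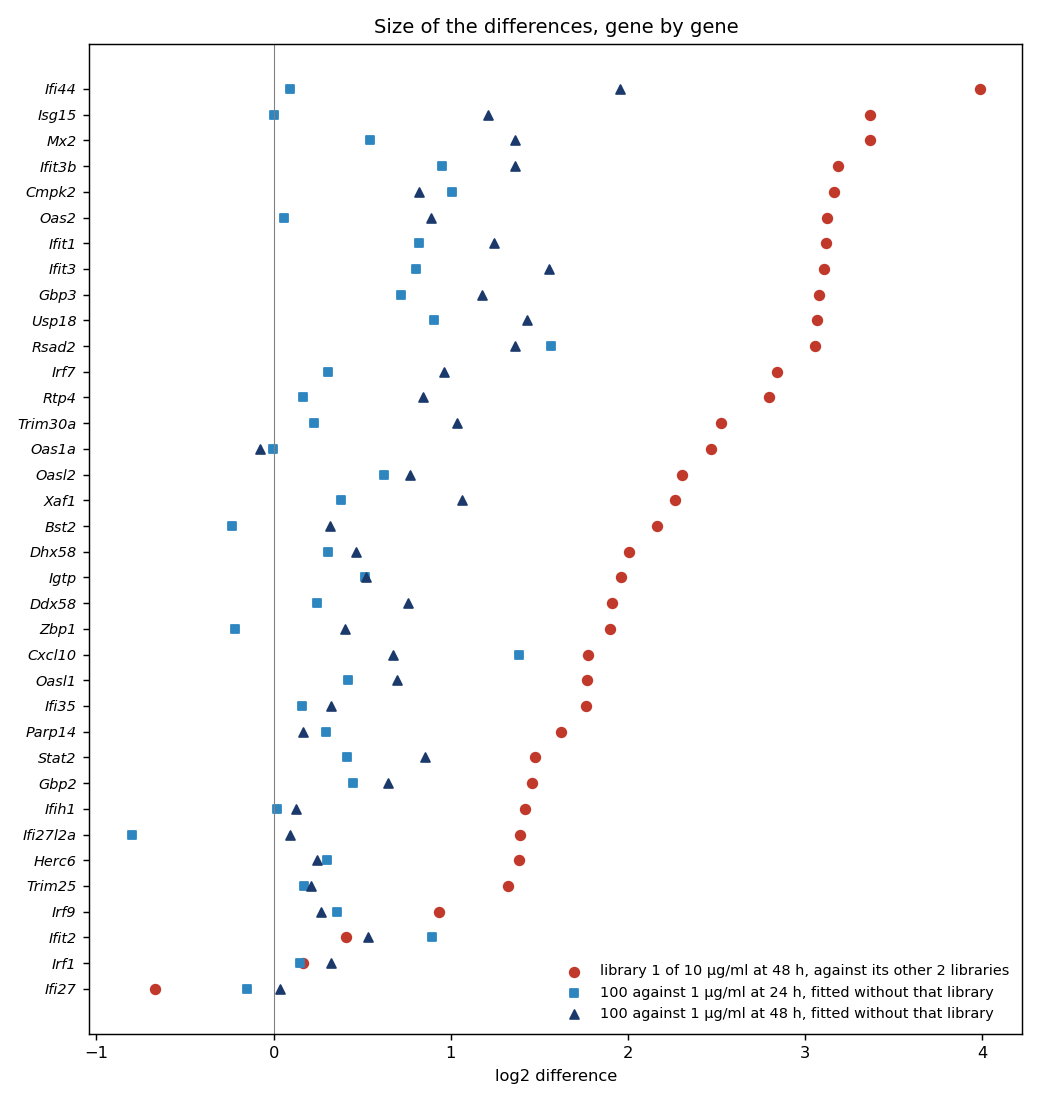
For each of the 36 tested genes, the log2 difference of library 1 of 10 µg/ml at 48 h from the mean of its 2 mates (red circles), and the log2 differences of 100 from 1 µg/ml at 24 h (squares) and 48 h (triangles) fitted without that library. Ifi44 (3.99), Isg15 (3.37) and Mx2 (3.36) lead in the red circles, while Ifit2 (0.41), Irf1 (0.17) and Ifi27 (-0.67) close the list.

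Upstream of these genes, the few interferon genes that were rows of the table were hardly counted. Of 20 genes of type I and type III interferons listed, 5 were rows of the table and 0 had enough counts to be tested. Ifnz reached at most 2.16 CPM in any library and was at 0 in the library that stood apart. Other ligands, among them Ifnb1 and Ifng, were not analysed here. Of 9 receptor and Janus kinase genes, 8 were tested, and 5 rose and 1 fell at 100 µg/ml at 24 h against untreated cells. Of 16 tested genes of nucleic acid sensing and interferon induction, 1 rose and 2 fell there. Of all tested genes, 16.8% were called higher and 19.9% lower there, so the counts of these 16 lie below the background. The receptor gene Ifnar2 was at 129 to 146 CPM at 1 µg/ml and 197 to 216 CPM at 100 µg/ml at 48 h, without overlap, a difference of 0.57 ± 0.10 (adjusted p = 4.71e-05). At 24 h, Il10rb (0.45 ± 0.11, adjusted p = 0.0043), Ifngr1 (0.35 ± 0.10, adjusted p = 0.0129) and Ifngr2 (0.30 ± 0.10, adjusted p = 0.0298) were higher at 100 than at 1 µg/ml.

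Of the kinases, Jak1 rose at 1 µg/ml at 2 h and fell against untreated cells at 24, 48 and 72 h at all doses. Tyk2 rose at 100 µg/ml at those 3 times and at 1 µg/ml at 72 h. Jak2 was at 28.4 to 37.9 CPM in untreated cells and at 75.6, 104 and 84.3 CPM at 10 µg/ml at 2 h. That was above 37.7 to 56.7 CPM at 1 µg/ml and 44.9 to 52.6 CPM at 100 µg/ml, and 10 exceeded 1 µg/ml by 0.88 ± 0.16 (adjusted p = 0.000719). Ifnar1 was at 71.6 to 84.7 CPM in untreated cells and was called higher at 10 µg/ml at 2 h and at every dose of 24, 48 and 72 h. In the library that stood apart Ifnar1 was at 108 CPM, beside 88.0 and 119 CPM in its mates, and Ifnar2 at 152 CPM, beside 143 and 154 CPM.

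Of 14 STAT and IRF genes outside the 37, 12 were tested, and 0 were called between 100 and 1 µg/ml at 24 h, 1 (Irf8, higher) at 48 h and 0 at 72 h. At 24 and 72 h, 1 and 2 of them had an unadjusted p under 0.05 in edgeR's test. Of all genes, 3.77% were called higher and 7.21% lower at 24 h, 3.82% and 6.44% at 48 h, and 4.99% and 6.51% at 72 h. Among 20 tested negative regulators, Socs1 and Socs3 differed between doses in opposite directions. Socs1 was higher at 100 than at 1 µg/ml at 48 h, with 24.0 beside 11.8 CPM (1.03 ± 0.21, adjusted p = 0.000548), and Socs3 was lower, with 41 beside 69.4 CPM (-0.75 ± 0.14, adjusted p = 0.000265).

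A further list of 111 interferon-induced genes outside the 37 held 82 tested genes. At 100 µg/ml at 24 h, 26 of them were called higher and 2 lower against untreated cells, against 16.8% and 19.9% of all tested genes. They were led by the GTPase genes Gbp9 (25.7 beside 6.17 CPM, log2 difference 2.07 ± 0.42, adjusted p = 2.33e-05) and Gbp6 (27.8 beside 6.99 CPM, 2.01 ± 0.40, adjusted p = 1.81e-05). From 2 h to 24 h, 52 were called higher and 3 lower, against 29.3% and 28.6% of all genes, with a median of 0.56. The calls of this list were not counted in the fit with header spelling as a term. Between 100 and 1 µg/ml, 2 were higher and 4 lower at 24 h, 5 and 1 at 48 h, and 5 and 1 at 72 h. The shares of all genes were 3.77% and 7.21%, 3.82% and 6.44%, and 4.99% and 6.51%, so these counts are near or below the background. The RNA-activated kinase gene Eif2ak2 was among the lower ones, with 239 to 248 CPM at 100 µg/ml and 285 to 336 CPM at 1 µg/ml at 24 h (-0.37 ± 0.10, adjusted p = 0.0127).

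The library that stood apart was high in the same further list. Of its 82 tested genes, 46 were over 1 higher on the log2 scale than in its mates. Among the 40 genes of at least 3 mean log2 CPM that exceeded its mates most, 20 were of the 37, 18 were of the further list, and 1, Rnf213, was in no list. Its marker sums were 929 CPM beside 789 and 923 CPM in its mates for macrophage and myeloid genes, and 184 beside 183 and 204 CPM for epithelial genes. They were 448 beside 530 and 551 CPM for mesothelial genes and 10015.5 beside 11596.8 and 11023.8 CPM for fibroblast genes. Endothelial genes summed to 98.7 beside 101 and 106 CPM, and lymphocyte and natural killer cell genes to 2.79 beside 0.446 and 1.36 CPM. Plasmacytoid dendritic cell genes summed to 14.3 beside 15.6 and 16.3 CPM. Of these, Runx2 had 1228 and Cox6a2 490 counts over all libraries, while Siglech had 48, with 17 libraries at 0.

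The 10 genes outside the 37 whose log2 level ran most closely with the mean level of the 36 over the 39 libraries were Iigp1, Ly6e, Lgals3bp, Ube2l6, Irgm1, Gbp6, Gbp9, Gm4951, Rnf213 and H2-T22, with Pearson's r of 0.91 to 0.84. Without the library that stood apart r was 0.72 to 0.87 for these genes. Within the 36, Ifit3 (0.95), Isg15 (0.95) and Oasl2 (0.94) ran most closely with the mean that they enter, and Irf1 (0.45), Ifit2 (0.39), Cxcl10 (0.28) and Ifi27 (-0.12) least. These are descriptions over 39 libraries that share 13 groups.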

How the data were processed

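Gene counts of 39 libraries from 5′-end sequencing of poly(A) RNA were used as the authors deposited them, as whole-number counts per gene. The submitters' processing notes name cutadapt 2.1.0, Bowtie2 2.4.2 and the build GRCm38. How reads were assigned to genes, with which annotation, strand setting or molecular identifiers, is not given in the sources used here, so reads of overlapping or near-identical genes may be shared. Columns were matched to samples by name, and groups follow the labels. Rows passing filterByExpr (14419 of 30012) were fitted with edgeR 4.0.16 in R 4.3.3 (TMM scaling, quasi-likelihood test, a mean per group, all 39 libraries), and p-values of 24 comparisons were adjusted by Benjamini-Hochberg over all tested genes, with calls under 0.05. Standard errors come from the same fit. The test was run on simulated data first. The level per library used log2 CPM with a prior count of 2. The members, the gene lists and the comparisons were chosen with earlier results of these data known. Genes called in at least 1 comparison with a mean log2 CPM of at least 2 are described with values and the others by counts or ranges. From the other lists, called genes of at least 3 mean log2 CPM without overlap were named, at most 4 a list and comparison, and receptors, kinases, ligands and Eif2ak2 in any case, except 1 gene that is not reported here. Alternatives were DESeq2 1.42.0, RLE scaling, no filter, other sets of libraries, header spelling as a term and 1 row left out.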

Additional observations from a re-analysis of the deposited data

Results flagged for a closer look

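The slope of Ifit2 over C1q dose differed between the 4 times, with an adjusted p of 0.0139 in edgeR's test of the interaction over 39 libraries. Mean levels of Ifit2 at 1, 10 and 100 µg/ml were 29.4, 27.6 and 31.5 CPM at 2 h, 24.6, 27.9 and 45.5 CPM at 24 h, 27.1, 27.5 and 39 CPM at 48 h, and 16.6, 21.4 and 35.0 CPM at 72 h. The 3 libraries of 100 µg/ml were above the 3 of 1 µg/ml at 24, 48 and 72 h, and overlapped with them at 2 h.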

How the results depend on the processing

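The counts of called genes among the 36 kept within 1.5 times of the reported ones in all 24 comparisons under RLE scaling and without the row LOC118568312. Shares of all genes called under each setting are not given in this section. Its counts alone therefore do not show whether a change is particular to the 36. Under DESeq2, 100 µg/ml at 48 h against untreated cells gave 3 and the interaction 2. In the order 1, 10 and 100 µg/ml against untreated cells, no filter on low counts gave 2, 8 and 3 at 2 h, 13 and 13 at 24 h for 1 and 10 µg/ml, 8 and 14 at 48 h for 1 and 100 µg/ml, and 8, 6 and 11 at 72 h. It gave 11, 16 and 9 for 100 against 1 µg/ml at 24, 48 and 72 h, 25 for 10 against 1 µg/ml at 48 h, 5 for 48 against 24 h, 22 for 72 against 48 h and 14 for the interaction. A fit of only the libraries compared gave 4, 8 and 5 at 2 h, 10 and 17 at 24 h for 1 and 10 µg/ml, 8 and 15 at 48 h for 1 and 100 µg/ml, 7, 9 and 12 at 72 h, 8 for 100 against 1 µg/ml at 24 h and at 72 h, and 0 for 10 against 1 µg/ml at 48 h.

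The other settings were added after the data were seen. Without library 1 of 10 µg/ml at 48 h the counts against untreated cells were 2, 9 and 2 at 2 h, 14, 13 and 26 at 24 h, 5 and 14 at 48 h for 10 and 100 µg/ml, and 8, 5 and 11 at 72 h. They were 13, 16 and 8 for 100 against 1 µg/ml at 24, 48 and 72 h, 0 for 10 against 1 µg/ml at 48 h, 26 for 48 against 24 h, 3 for 72 against 48 h and 7 for the interaction. Without that library and the first libraries of 1 and 10 µg/ml at 24 h they were 2, 9 and 3 at 2 h, 9 and 26 at 24 h for 10 and 100 µg/ml, 8, 5 and 16 at 48 h, 9, 6 and 11 at 72 h, 14, 17 and 8 for 100 against 1 µg/ml, 0 for 10 against 1 µg/ml at 48 h, 14 for 48 against 24 h, 4 for 72 against 48 h and 9 for the interaction. With header spelling as a term, the count was 3 for 100 µg/ml at 24 h and 2 for 1 µg/ml at 48 h against untreated cells, 1 and 1 for 100 against 1 µg/ml at 24 and 48 h, 0 for 10 against 1 µg/ml at 48 h, 19 for 24 against 2 h and 0 for 48 against 24 h. With only columns of 1 header spelling, 1 µg/ml at 24 h gave 2, 100 and 10 against 1 µg/ml at 48 h gave 0 and 0, and 72 against 48 h gave 2. Of 137 calls, 51 were lost with header spelling as a term, 40 without that library and 21 under DESeq2, and 74 were lost in at least 1 of the fits that leave out 1 library each. Of the 82 calls that could be tested with columns of 1 spelling, 29 were lost. At 10 µg/ml at 48 h against untreated cells, differences turned negative without that library, and without the 3 libraries, for Ifi35 (-0.19 and -0.18), Mx2 (-0.0275 and -0.0187), Usp18 (-0.25 and -0.24), Xaf1 (-0.41 and -0.40), Parp14 (-0.0175 and -0.00867) and Gbp3 (-0.19 and -0.18). Leaving out each library in turn, these 6 differences ranged from -0.19 to 1.01 for Ifi35, from -0.0275 to 2.80 for Mx2, from -0.25 to 2.05 for Usp18, from -0.41 to 1.21 for Xaf1, from -0.0175 to 1.13 for Parp14 and from -0.19 to 2.15 for Gbp3. Apart from the settings that leave libraries out, the cause of these changes was not tested.

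Leaving out each library of the groups compared in turn gave 1 to 2, 3 to 4 and 1 to 2 called genes at 2 h, 2 to 5, 2 to 3 and 10 to 14 at 24 h, 3 to 3, 5 to 30 and 2 to 5 at 48 h, and 2 to 3, 2 to 2 and 1 to 3 at 72 h. For 100 against 1 µg/ml, where the libraries of 10 µg/ml at the same time were left out in turn too, it gave 0 to 0, 2 to 3, 1 to 16 and 1 to 2 at 2, 24, 48 and 72 h, and for 10 against 1 µg/ml 0 to 0, 0 to 0, 0 to 26 and 0 to 0. It gave 26 to 30 for 24 against 2 h, 1 to 26 for 48 against 24 h, 3 to 19 for 72 against 48 h and 1 to 7 for the interaction. No paired analysis was possible because the labels give the groups no shared replicate numbers. Depth limits genes such as Mx1, Oas2, Oas1a and Oasl1, which had few counts per library.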
